A study of Mus musculus with 4 samples.

Results

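The leucocyte adhesion and selectin genes comprise 9 transcripts that act when blood leucocytes slow, stop and leave a vessel, and they were taken by symbol from the 55450 genes of the deposited count matrix. The members are Selplg, Sele, Selp, Icam1, Vcam1, Itgal, Itgam, Itgb2 and Itga4, and all 9 were found. Single cells came from tumours that the murine breast cancer line 4T1 had formed in the flank of female BALB/c mice aged 6 to 8 weeks, and were sequenced with the 10x Genomics droplet assay after CD45+ sorting. The mice received 4T1 cells in 25 µl and an intravenous injection on day 7, and tumours were collected on day 13. By the sample records 2 samples were PBS controls and 1 was TIOs+NIR3, which stands for injected TIOs followed by exposure to near infrared light on days 8, 9 and 10, each time for 5 min at 980 nm with a power of 1.0 W cm-2. A further sample carried the title of a control and the treatment text of a TIOs animal, so it was left in no group. TIOs are carriers made from a mouse macrophage line by liquid nitrogen treatment and loaded with light-responsive upconversion nanoparticles, the photosensitizer Ce6 and RSL3, an inhibitor of the lipid peroxide reductase GPX4. The mice are immunocompetent hosts of a transplanted line, and whether each sample was a single mouse or a pool is not stated.

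The matrix joined 4 libraries, told apart by the barcode suffix, and no source used here ties a suffix to a sample. PBS and TIOs+NIR3 therefore cannot be told apart in the counts, no treatment was compared, and the cells were read as 1 pooled sample or as 4 libraries of unknown treatment, with no test between them. Levels are given as UMIs per 1000000 UMIs (CPM) of the summed cells of a class, with an exact 95% Poisson interval, and shares of barcodes with an exact 95% binomial (Clopper-Pearson) interval. Both intervals cover counting error only and say nothing of the spread between mice. Cell classes were gates on marker transcripts, so a neutrophil here is a neutrophil-like barcode.

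Recruitment of leucocytes proceeds in steps. Selectins on activated endothelium catch glycoprotein ligands such as PSGL-1 and let the cell roll, chemokine signals then switch integrins to their adhesive form, and the integrins hold on to ICAM-1 and VCAM-1 of the vessel wall until the cell crosses it. LFA-1 (Itgal with Itgb2) and Mac-1 (Itgam with Itgb2) bind ICAM-1, whereas VLA-4 (Itga4 with Itgb1) binds VCAM-1. In tumours the same molecules serve contacts between leucocytes, stroma and tumour cells, and the study describes VCAM-1 on tumour cells as a partner of integrins kept on the carriers.

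Of 33064 barcodes, 32133 had at least 300 genes and at most 15% mitochondrial UMIs, and 30279 of these were classified, 21583 as leucocytes and 8696 as endothelial, stromal, tumour or keratinocyte barcodes. The 4 libraries held 69255999 to 108646352 UMIs in all and had a median of 2641.5 to 11698 UMIs per kept barcode. The share of leucocytes was 42.0% in library 1, where 3919 of the 4187 tumour barcodes lay, and 73.9% to 87.8% in libraries 2 to 4. Although the cells had been sorted for CD45, Ptprc, its gene, stood at 473 CPM in leucocytes and at 9.74 CPM in the other barcodes. Of the barcode sequences, 101 occurred in 2 libraries.

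The 5 members Selplg, Itgal, Itgam, Itgb2 and Itga4 lay on the side of leucocytes in every library. Sele and Vcam1 lay on the other side, and Selp and Icam1 changed side with the library. Selplg was 36.5-fold, Itgal 29.5-fold, Itgam 48.2-fold, Itgb2 25.7-fold and Itga4 31.4-fold higher in leucocytes than in the other barcodes, so 5 of 9 members passed 4-fold, as did 11.1% of the 18907 genes with at least 50 UMIs. In the other direction Sele, at 0.0832 of the level of the other barcodes, and Vcam1, at 0.183, passed 4-fold. These are 2 of 9 members against 18.9% of all genes, and nothing is read from that count. Selp stood at 0.435 and Icam1 at 1.84 times the level of the other barcodes pooled. By library, however, Selp gave 2.08, 0.306, 0.544 and 0.893 and Icam1 5.29, 1.47, 2.53 and 0.952 in libraries 1 to 4, so the direction of both turned with the library and Icam1 passed 4-fold in library 1. Endothelial barcodes exceeded all other classes by 122-fold for Sele and 150-fold for Selp, 2 of 9 members against 5.04% of all genes, and by 3.76-fold for Icam1 and 1.95-fold for Vcam1. The median log2 ratio of leucocytes to other barcodes was 4.68 over the members and -0.378 over all genes tested. The 5 leucocyte members kept a ratio of 17.1 to 51.8 in every library, whereas the ratio of Vcam1 was 0.644 in library 1 and 0.0678 to 0.134 in libraries 2 to 4. That of Sele was 0.515 in library 1 and 0.0402 to 0.218 in libraries 2 to 4. Neither gene thus passed 4-fold in library 1, where leucocytes held 1 Sele UMI and the limit of 3 counts was used in its place.

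**Figure D1:**
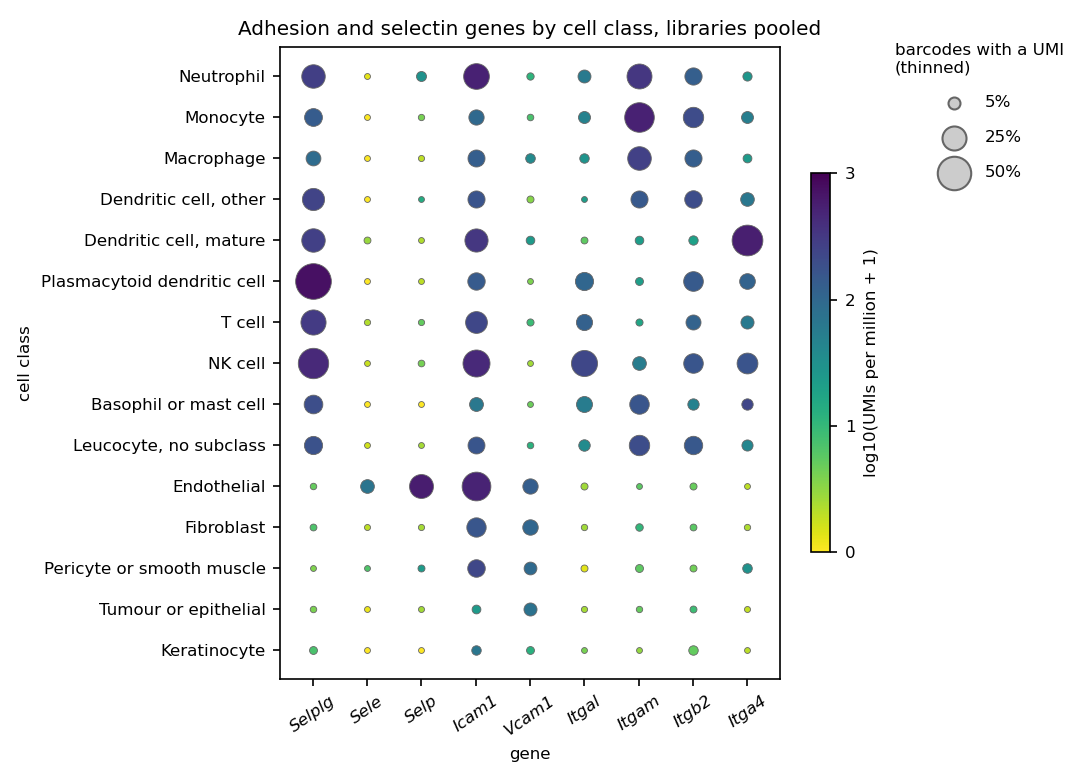
Each row is a cell class of at least 50 barcodes and each column a member, with the 4 libraries pooled, colour giving the level as log10(CPM + 1) and dot area growing with the share of barcodes with a UMI after thinning to 1000 UMIs. Sele and Selp stand out in endothelial barcodes (68.3 and 568 CPM), Vcam1 in the non-leucocyte classes other than keratinocytes, Icam1 on both sides, and the remaining members in leucocytes, led by plasmacytoid dendritic cells for Selplg and mature dendritic cells for Itga4.

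Selplg encodes PSGL-1, the main leucocyte ligand of P-selectin and also a ligand of E-selectin, and lies at chr5:113818536-113832644 on the minus strand. Its level was 750 CPM (698 to 805) in plasmacytoid dendritic cells, 450 in natural killer (NK) cells and 303 in T cells. Neutrophils stood at 277 CPM (270 to 284) and could not be separated by counting error from mature dendritic cells at 273 and, through these, other dendritic cells at 250. Monocytes at 136 and macrophages at 87.4 CPM were the lowest of the leucocyte classes of at least 50 barcodes. The 5 non-leucocyte classes lay between 2.82 and 6.28 CPM. After thinning to 1000 UMIs, 57.1% of plasmacytoid dendritic cells, 23.8% of neutrophils and 0.343% of tumour barcodes held a Selplg UMI (96.8%, 38.1% and 5.49% as deposited), and the tumour share stands for the background in cells that should lack the gene.

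Within a class Selplg also varied between libraries. In neutrophils it was 190, 227, 255 and 445 CPM in libraries 1 to 4, and in macrophages 76.1, 87.2, 65.8 and 110. Library 4 was the highest in both classes, and its neutrophil interval of 426 to 466 lay clear of the other 3. T cells ranged less, from 230 in library 2 to 341 CPM in library 3. The genes whose profile over the 15 classes lay nearest to that of Selplg, by Pearson correlation of log2(CPM + 10) among 13298 genes, were Cd37 (0.976), Ikzf1 (0.965), Dusp5 (0.965), Dock2 (0.964) and Arhgap30 (0.963), of which Cd37 encodes a leucocyte tetraspanin and Ikzf1 a lymphoid transcription factor.

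PSGL-1 binds selectins only after glycosylation and tyrosine sulphation. Of 12 tested genes for enzymes that build selectin ligands, Fut7, a fucosyltransferase that finishes sialyl Lewis x, and Gcnt1, which makes the core 2 branch, were at least 4-fold higher in leucocytes. Gcnt1 stood at 47.9 CPM in leucocytes and 2.38 in the other barcodes, with 134 in neutrophils, and Fut7 at 1.77 and 0.0862. Chst2, a sulphotransferase, passed in the other direction, with 4.42 CPM in leucocytes and 40.4 in the other barcodes, and no gene of the list passed for endothelial barcodes. The counts were thus 2, 1 and 0 of 12, where the shares over all genes were 11.1%, 18.9% and 5.04%. Nothing is read from counts this small, the median log2 ratio over the list being 0.0224. The highest enzyme gene of the list was Tpst2, a tyrosylprotein sulphotransferase, in endothelial barcodes (111 CPM), B4galt1 in macrophages (84.4) and St3gal4 in tumour barcodes (80.2).

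Among selectin ligand genes other than the members, Spn, which encodes CD43, was at least 4-fold higher in leucocytes, at 15.2 CPM against 3.43 in the other barcodes. Podxl, Cd34 and Glycam1, which encode sialomucins, passed both for the non-leucocyte barcodes and for endothelial barcodes. Cd34 stood at 542 CPM in endothelial barcodes, Cd24a at 788 in neutrophils and 227 in tumour barcodes, and Cd44 at 251 in macrophages.

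Sele encodes E-selectin, which endothelium makes upon activation by inflammatory cytokines, and lies at chr1:164048234-164057677. Its neighbour Selp, at chr1:164115264-164150026 on the same strand, encodes P-selectin, which endothelium and platelets store in granules. Icam1, at chr9:21015985-21028817, encodes the ligand of the β2 integrins. The RefSeq promoters of these 3 genes (GRCm38.p6, plus strand, the 250 bases before each RefSeq start) are printed because the genes were found together in endothelial barcodes. The Icam1 window ends at 21015939, short of the gene start given above, so positions in it are counted from the RefSeq start. Capitals mark GGNNNTTCC on either strand, a spacing of the kappaB element chosen after the sequences had been seen, and in Sele also TATAAA.
Sele, chr1:164047984-164048233: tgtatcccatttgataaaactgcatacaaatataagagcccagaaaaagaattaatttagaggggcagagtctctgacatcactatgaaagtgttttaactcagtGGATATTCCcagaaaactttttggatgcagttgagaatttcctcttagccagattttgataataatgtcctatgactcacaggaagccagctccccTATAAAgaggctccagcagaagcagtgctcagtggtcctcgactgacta
Selp, chr1:164115014-164115263: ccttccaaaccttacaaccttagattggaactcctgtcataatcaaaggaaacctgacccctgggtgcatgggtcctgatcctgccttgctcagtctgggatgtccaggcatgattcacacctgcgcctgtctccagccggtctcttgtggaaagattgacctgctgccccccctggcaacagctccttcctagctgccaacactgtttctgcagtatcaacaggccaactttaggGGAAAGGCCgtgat
Icam1, chr9:21015690-21015939: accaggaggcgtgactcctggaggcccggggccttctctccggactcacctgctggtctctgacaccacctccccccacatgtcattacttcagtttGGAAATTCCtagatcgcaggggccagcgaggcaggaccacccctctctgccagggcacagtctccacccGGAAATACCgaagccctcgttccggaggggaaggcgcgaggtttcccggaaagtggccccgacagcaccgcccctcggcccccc
The spaced pattern lay 145 to 137 bases before the start in Sele, 14 to 6 in Selp on the minus strand, and 153 to 145 (both strands) and 84 to 76 (minus strand) in Icam1. It was present in 15.7% of 32851 promoter windows of the same length, and TATAAA, found 49 to 44 bases before the start of Sele, in 12.4%. A match in these letters is a description of the window and not a bound site. RefSeq windows for Selplg, Vcam1, Itgal and Itgb2 were not used here.

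Endothelial barcodes held 69.1% of the Sele UMIs in classified barcodes although they numbered only 287, and the 3979 fibroblasts held a further 20.9%. Of the 124 fibroblast UMIs, 54 lay in 7 barcodes with at least 5 each, in which a median of 0 endothelial markers was on. Fibroblasts with Sele had a median of 41807.5 UMIs, a depth at which a marker takes several UMIs to be on. The part of endothelial RNA in them was not tested. The level was 68.3 CPM (61.9 to 75.3) in endothelial barcodes, 5.64 in pericytes or smooth muscle, 1.01 in fibroblasts and 0.324 in neutrophils. None was counted in plasmacytoid or other dendritic cells, basophils or mast cells, or keratinocytes. A UMI was held by 7.09% of endothelial barcodes (4.39% to 10.7%) after thinning and 24.0% as deposited, against 0.0292% and 0.0880% of leucocytes. The tumour value of 0.215 CPM rested on 1 barcode with 14 of the 19 UMIs, in which 6 endothelial markers were on, and it was 0.0566 without that barcode.

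Selp shared that main source and added a minor one. Endothelial barcodes stood at 568 CPM (549 to 588) and held 73.4% of the UMIs in classified barcodes, and neutrophils, at 29.0 CPM (26.8 to 31.4), held a further 13.5%. Pericytes or smooth muscle showed 22.2 CPM, but 1 barcode with 4 endothelial markers on carried 58 of those 63 UMIs and the level was 1.83 without it. Dendritic cells other than mature ones stood at 13.4 CPM, and the remaining classes at 4.24 CPM or less. After thinning, 24.8% of endothelial barcodes, 3.02% of neutrophils and 0.125% of macrophages held a UMI (42.2%, 5.53% and 0.764% as deposited). Selp overlaps Gm16587 and Gm16548 on the opposite strand, which were given 57 and 100 UMIs beside its 4764.

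Within endothelium the selectins were carried by a minority of barcodes. For Selp, 71 barcodes with at least 5 UMIs held 97.2% of the endothelial UMIs, and 184 were in a single barcode. For Sele, 25 such barcodes held 78.3%. The 2 selectins were found in the same barcodes: of 69 barcodes with Sele, 62 also held Selp (89.9%), against 27.1% of endothelial barcodes without Sele, with a median depth of 16658 and 10589 UMIs. Of Sele, Selp, Icam1 and Vcam1, none was detected in 54 endothelial barcodes (18.8%, median 4484 UMIs), and all 4 were detected in 41 (14.3%, median 16791 UMIs). Depth thus moved with the number detected, and its part in the co-detection was not tested.

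Per library the endothelial level of Selp was 84.4 CPM in library 1, 481 in library 2, 1255 in library 3 and 461 in library 4. Those of Sele were 31.6, 60.2, 109 and 99.5 CPM in libraries 1 to 4. Library 1 was the lowest for both genes and its intervals, 60.3 to 115 for Selp and 17.7 to 52.2 for Sele, lay below those of the other libraries. Library 3 was the highest for Selp, whereas for Sele its interval overlapped that of library 4. The endothelial barcodes numbered 56, 175, 41 and 15, so the value of library 4 rests on 15 barcodes, 5 of them with Sele. Sele was 43.3 to 519-fold and Selp 60.3 to 229-fold higher in endothelial barcodes than in all other classes in each library.

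**Figure D2:**
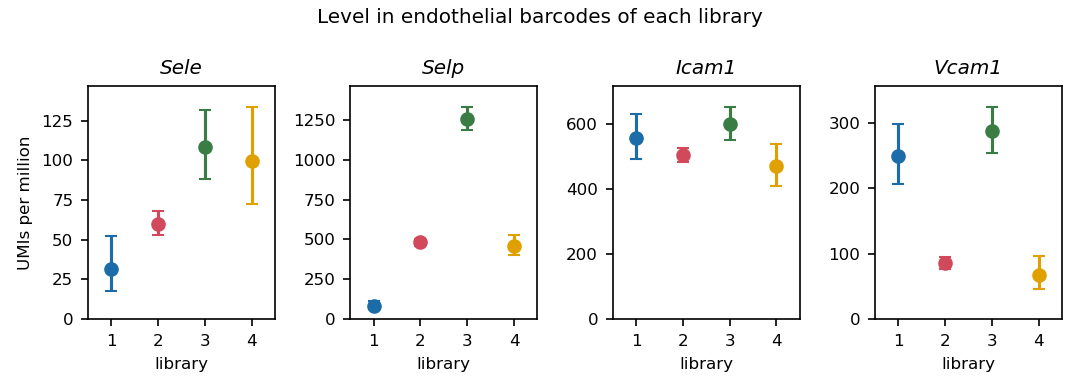
Level in CPM of Sele, Selp, Icam1 and Vcam1 over the endothelial barcodes of each library, with exact 95% Poisson intervals for counting error. Selp runs from 84.4 in library 1 to 1255 in library 3 and Vcam1 from 67.8 in library 4 to 287 in library 3, whereas Icam1 stays between 470 and 599.

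Postcapillary venules are the usual place of leucocyte exit, so endothelial barcodes were described by the venous markers Ackr1, Vwf, Nr2f2, Il6st and Lrg1, with the cut at 2 markers set after the data had been seen. The 123 barcodes with at least 2 venous markers on stood at 1536 CPM (1483 to 1591) for Selp, 180 (163 to 200) for Sele, 1010 for Icam1 and 296 for Vcam1. The 164 barcodes with fewer stood at 61.9, 9.64, 263 and 40.1 CPM. Selp was detected in 77.2% and 15.9% of the respective barcodes and Sele in 42.3% and 10.4%, at a median of 11582 and 13707 UMIs. A marker took fewer UMIs to be on in a shallow barcode, so the split was not independent of depth. The part of depth in these values was not tested. Barcodes with at least 3 capillary, tip or arterial markers (96) stood at 112 CPM for Selp and 17.1 for Sele, and those with at least 2 lymphatic markers (23) at 49.3 and 30.5.

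The level was higher in the venous than in the remaining barcodes of every library. The venous and remaining barcodes numbered 22 and 19 in library 3 and only 8 and 7 in library 4. In library 4 the remaining ones held 1 Selp UMI and 2 Sele UMIs, so that pair rests on very few counts. For Selp the levels were 213 and 21.9 CPM in library 1, 1529 and 64.6 in library 2, 2277 and 101 in library 3, and 879 and 4.73 in library 4. For Sele they were 71.0 and 12.5, 189 and 9.08, 194 and 11.4, and 182 and 9.46. In library 1 the Sele level rested on 11 UMIs in 2 of 21 venous barcodes (9.52%), against 4 of 35 of the remaining ones (11.4%), so the share was not higher there. For Icam1 they were 1071 and 307, 1039 and 290, 1009 and 135, and 827 and 80.4. The Selp level of venous barcodes in library 1 was thus the lowest of the 4, while Icam1 in venous barcodes differed little between libraries 1, 2 and 3. Vcam1 was the member with the smallest gap in library 1, with 329 (245 to 433) and 210 (163 to 267) CPM whose intervals met, against 236 and 25.2 in library 2 and 512 and 32.0 in library 3. The share of barcodes with a Vcam1 UMI was 38.1% and 40.0% in library 1, 52.8% and 23.3% in library 2, and 40.9% and 36.8% in library 3. The Vcam1 share was thus not higher in the venous barcodes of library 1 and differed little in library 3.

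**Figure D3:**
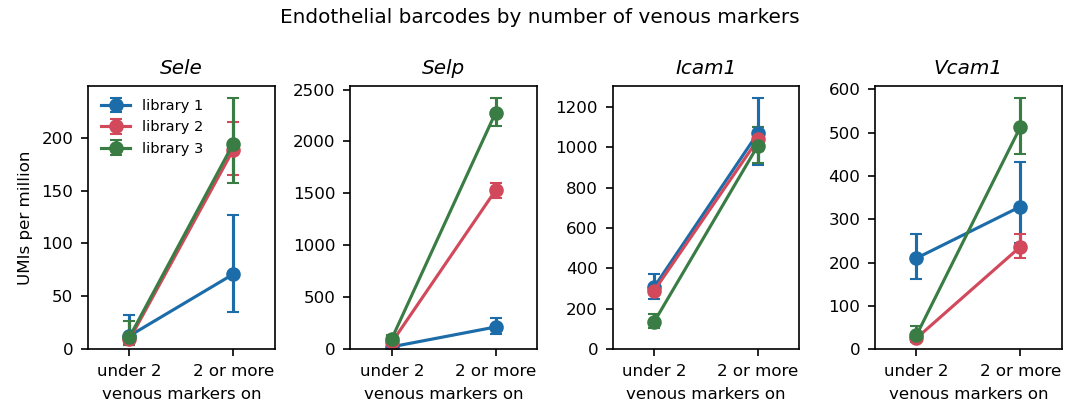
Level in CPM in endothelial barcodes with under 2 and with 2 or more venous markers on, for libraries 1, 2 and 3, with exact 95% Poisson intervals. The level of each of the 4 genes is higher with 2 or more venous markers in each library, although the Vcam1 intervals of library 1 meet, with Selp in library 3 reaching 2277.

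The Selp of neutrophils was spread thinly, with 626 UMIs over 552 barcodes and no more than 4 in any of them. Those 552 barcodes stood at 89166 CPM for the 11 neutrophil markers. Of the 9 platelet or megakaryocyte markers 7 were at 0 in them, Gp9, Gp1bb, Gp1ba, Gp5, Treml1, Tubb1 and Gp6, and the summed level of the list was 90.3 CPM, against 79.0 in neutrophils without Selp. Gp9, Gp1bb, Gp1ba and Treml1 were also at 0 in the 9424 neutrophils without Selp. Of the 15 endothelial markers Cldn5, Emcn, Tie1, Robo4 and Sox17 were at 0, and the list stood at 24.7 and 27.3 CPM with and without Selp. Any platelet or megakaryocyte marker was found in 5.43% and 4.07% of neutrophils with and without Selp, and any endothelial marker in 5.98% and 4.67%. Their median depth was 1979 and 1811 UMIs, and the part of RNA from these other cells was not tested. In libraries 1 to 4 the neutrophil level of Selp was 14.7, 29.1, 27.7 and 37.3 CPM, lowest in library 1 as in endothelium.

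Over the 15 classes the profiles of Sele and Selp had a correlation of 0.931 with each other. The genes nearest to Sele were Myct1, Tmem252, Ushbp1, Bcl6b and Grrp1, with 0.993 to 0.995, and those nearest to Selp were C1qtnf9 (0.958), Clec1a (0.955), C130074G19Rik (0.948), Pcdh17 (0.946) and Ushbp1 (0.944). The 15 points share libraries and differ in depth, so these values only describe likeness.

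Icam1 encodes ICAM-1, the ligand of LFA-1 and Mac-1, and it had the widest range of sources among the endothelial ligands. Neutrophils at 530 CPM (521 to 540) and endothelial barcodes at 519 (501 to 538) did not differ beyond counting error, and NK cells followed at 446, mature dendritic cells at 330, and T cells and pericytes or smooth muscle both at 227. Fibroblasts stood at 156 CPM and, being deep barcodes, held 39.5% of the Icam1 UMIs of classified barcodes. Macrophages at 129 and monocytes at 96.7 CPM were the lowest of the large leucocyte classes, and tumour barcodes were at 23.1. The thinned shares were 36.5% in endothelial barcodes, 32.1% in NK cells, 28.9% in neutrophils, 15.7% in fibroblasts and 1.96% in tumour barcodes, whereas as deposited they were 73.2%, 64.2%, 40.0%, 75.4% and 23.7%.

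The leading class of Icam1 rested on the library. Neutrophils stood at 194, 501, 772 and 291 CPM in libraries 1 to 4, and endothelial barcodes at 557, 503, 599 and 470. Neutrophils were below endothelial barcodes in libraries 1 and 4, level with them in library 2 and above them in library 3, the intervals of libraries 1, 3 and 4 being apart. NK cells stood at 352 CPM in library 1, 631 in library 3 and 441 in library 4. Fibroblasts ranged from 120 to 178 CPM and tumour barcodes from 22.2 to 29.6, so the spread between libraries was largest where neutrophils were concerned.

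Neutrophils fell into 5 Leiden clusters of at least 50 barcodes, which are given by their leading genes as a description, since the members were among the genes clustered. The cluster led by Klhl6 and Ptgs1 (2391 barcodes) stood at 1062 CPM for Icam1, the cluster led by Csf3 and Lcn2 (1881) at 549, that led by the interferon-induced genes Ifit3b and Ifit3 (2226) at 407, that led by Rab44 and Gk (2277) at 355, and that led by the granule genes Ngp and Camp (742) at 144. Libraries 2 to 4 supplied most of the first 4 clusters and library 1 gave 727 of the 742 barcodes of the last. The tumour marker Krt18 was also among the leading genes of that last cluster. Tumour markers summed to 1415 CPM in neutrophils of library 1 and to 26.6 to 127 in those of libraries 2 to 4. The part of tumour RNA in these values was not tested. Selplg took a different order, with 419 CPM in the Rab44 cluster, 349 in the Ifit3b cluster, 300 in the Klhl6 cluster, 195 in the Ngp cluster and 88.5 in the Csf3 cluster. Itgal was likewise highest in the Rab44 cluster, at 116 CPM, and lowest in the Csf3 cluster, at 19.4, while Itgam ranged from 208 to 391 CPM.

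**Figure D4:**
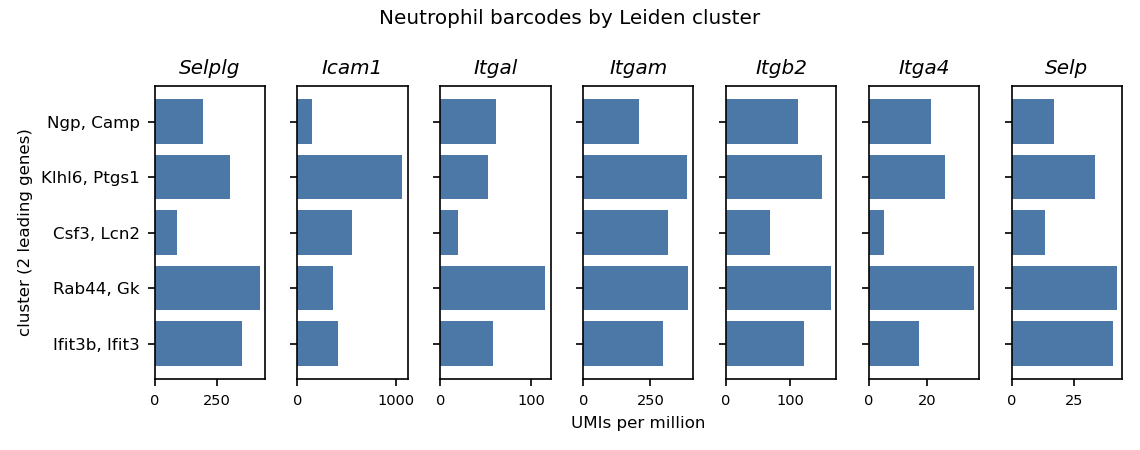
Level in CPM of 7 members in the 5 Leiden clusters of neutrophils, libraries pooled, each panel with its own axis from 0 and no error drawn. Icam1 is highest in the Klhl6 and Ptgs1 cluster (1062), whereas Selplg, Itgal and Itga4 are highest in the Rab44 and Gk cluster. Selp stands at nearly the same level in that cluster (42.1) and in the Ifit3b and Ifit3 cluster (40.5). The Ngp and Camp cluster comes almost wholly from library 1.

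Retnlg, a resistin-like gene of neutrophils, gave a split that could be read within each library. The 3136 neutrophils with Retnlg on stood at 424 CPM for Icam1 and the 6840 without at 585. In libraries 1 to 4 the pairs were 91.4 and 304, 396 and 531, 655 and 844, and 248 and 322, so Icam1 was lower with Retnlg in every library. Selplg was higher with it in every library, at 212 and 165, 305 and 205, 261 and 252, and 479 and 422 CPM, although the intervals of a pair were apart only in library 2. The genes nearest to Icam1 over the 15 classes were Gm48382 (0.872), Pde4b (0.859), Vps13d, Cdk11b and Cpeb4, less near than the nearest genes of the other members examined. Icam1 overlaps Gm47079 on the opposite strand, which was given 86 UMIs.

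Itgal, Itgam and Itgb2 encode the chains of the β2 integrins, and Itgb2 is the shared β2 chain without which neither LFA-1 nor Mac-1 reaches the surface. Itgal lies at chr7:127296260-127335138, Itgam at chr7:128062640-128118491 and Itgb2 at chr10:77530252-77565708. Itgal, the αL chain, was highest in NK cells at 230 CPM (204 to 258), followed by T cells at 120 and plasmacytoid dendritic cells at 104. Neutrophils stood at 58.9, monocytes at 45.8, macrophages at 27.4 and mature dendritic cells at 4.49 CPM, and the non-leucocyte classes between 0.352 and 3.14. The thinned share was 29.7% in NK cells, 10.5% in T cells and 0.261% in fibroblasts (64.6%, 39.2% and 4.90% as deposited).

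Macrophages carried Itgal mainly in library 1, with 51.8 CPM (48.3 to 55.5) there and 9.64, 3.80 and 7.26 in libraries 2 to 4. Their T cell markers summed to 31.0 CPM in library 1 and to 19.1 to 36.4 in the other libraries, and their NK markers to 52.8 against 4.06 to 23.8, a part in the result that was not tested. By cluster the value was 55.6 CPM in the 1332 macrophages led by Cxcl9 and H2-Eb1, of which 1323 came from library 1, and 5.76 in the 1766 led by Ppbp and Hbb-bs. NK cells gave 111 CPM in library 1, 268 in library 3 and 269 in library 4, and T cells 99.5, 97.1, 115 and 187 in libraries 1 to 4. Monocytes led by Mgst1 and Ccl24 stood at 79.0 CPM and those led by H2-Eb1 at 15.6.

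Itgam, the αM chain of Mac-1 (CD11b), was a myeloid gene in these data. Monocytes stood at 535 CPM (528 to 542) and held 51.8% of the UMIs of classified barcodes, neutrophils at 335 and macrophages at 264, all 3 apart from each other beyond counting error. Basophils or mast cells at 162 and dendritic cells other than mature ones at 148 followed, then NK cells at 53.3, mature dendritic cells at 21.2 and T cells at 16.1 CPM. Fibroblasts were at 9.63 and the other non-leucocyte classes at 2.09 to 4.67. A UMI was found in 38.8% of thinned monocytes, 27.2% of neutrophils, 24.1% of macrophages and 1.02% of fibroblasts (86.9%, 43.1%, 67.2% and 21.4% as deposited). Gm49368 overlaps Itgam on the same strand and was given 628 UMIs beside the 41702 of Itgam, so reads of the shared stretch may be divided between them.

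Library 1 was the lowest for Itgam in all 3 large myeloid classes. Monocytes stood at 242, 478, 511 and 553 CPM in libraries 1 to 4, neutrophils at 187, 311, 359 and 398, and macrophages at 156, 303, 372 and 386. The intervals of library 1 did not meet those of libraries 2 to 4 in any of these classes. The tumour markers of the same barcodes summed to 1415 CPM in neutrophils, 971 in monocytes and 1091 in macrophages of library 1 and to 2.17 to 133 in libraries 2 to 4, and their part in the result was not tested. Among macrophages the Cxcl9 cluster, which is nearly all of library 1, stood at 167 CPM and the Ppbp cluster at 386, so cluster and library cannot be told apart there.

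Itgb2 was found at like levels in many leucocyte classes. Monocytes at 205 CPM (200 to 209) and dendritic cells other than mature ones at 199 did not differ beyond counting error, and NK cells at 159, plasmacytoid dendritic cells at 144, macrophages at 130, neutrophils at 126 and T cells at 113 formed a chain of neighbours whose intervals overlapped. Basophils or mast cells at 48.0 CPM and mature dendritic cells at 18.6 (12.5 to 26.7) were lower, and the non-leucocyte classes lay between 3.52 and 7.82. In libraries 1 to 4 monocytes gave 171, 127, 185 and 216 CPM and neutrophils 103, 104, 123 and 177. Of 4249 monocytes with Itgam, 70.6% also held Itgb2, against 42.3% of those without, and of 422 T cells with Itgal 48.1% held Itgb2, against 31.2%, the barcodes with the α chain being deeper in each case (8173 against 4204 UMIs in monocytes and 5207 against 3342 in T cells). Over the classes the correlation of Itgb2 was 0.849 with Selplg, 0.827 with Itgal and 0.788 with Itgam.

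Integrins need inside-out activation through talin and kindlin to hold their ligands. Of 14 genes for this machinery 6 were at least 4-fold higher in leucocytes (Fermt3, Rassf5, Skap1, Fyb, Cyth1 and Cytip) and 2 in the other barcodes (Fermt2 and Tln2), with a median log2 ratio of 1.90, and none passed for endothelial barcodes, where the shares over all genes were 11.1%, 18.9% and 5.04%. Fermt3, the kindlin of blood cells, stood at 154 CPM in leucocytes and 6.24 in the other barcodes, and Fermt2, the kindlin of adherent cells, at 8.36 and 186. Fyb, an adaptor of integrin signalling, stood at 323 and 5.65 CPM. The highest gene of the list in neutrophils, macrophages, tumour and endothelial barcodes was the small GTPase gene Rap1b, with 586, 662, 140 and 373 CPM.

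Vcam1 encodes VCAM-1, the endothelial ligand of the α4 integrins, and lies at chr3:116109949-116129688 on the minus strand. Its level was 128 CPM (119 to 138) in endothelial barcodes, 105 (103 to 107) in fibroblasts, 94.5 (83.5 to 106) in pericytes or smooth muscle and 73.8 (72.0 to 75.6) in tumour barcodes, the intervals of fibroblasts and pericytes overlapping. Because fibroblasts and tumour barcodes were numerous and deep, they held 57.5% and 29.3% of the UMIs of classified barcodes. Among leucocytes macrophages were highest at 36.4 CPM, then mature dendritic cells at 23.1, neutrophils at 10.2, T cells at 7.94, monocytes at 6.32 and NK cells at 1.59. The thinned share was 9.44% in fibroblasts, 9.22% in endothelial barcodes, 6.25% in tumour barcodes, 5.96% in pericytes, 2.67% in macrophages and 0.889% in neutrophils, and as deposited 65.1%, 36.9%, 51.7%, 36.5%, 12.2% and 1.67%.

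Endothelial Vcam1 was 249, 85.2, 287 and 67.8 CPM in libraries 1 to 4, with libraries 1 and 3 above libraries 2 and 4 beyond counting error. The share of endothelial barcodes with a Vcam1 UMI differed little, at 39.3%, 35.4% and 39.0% in libraries 1 to 3 and 6 of 15 barcodes in library 4. With the libraries pooled, 38 endothelial barcodes with at least 5 UMIs held 83.9% of the endothelial Vcam1 UMIs, so these levels rest on few barcodes. In fibroblasts libraries 2 and 3 were the higher ones, with 127 and 119 CPM against 64.8 and 69.8 in libraries 1 and 4. The leading class thus rested on the library. Fibroblasts lay above endothelial barcodes in library 2 (124 to 131 against 76.6 to 94.6), and the intervals of both overlapped in library 4. Pericytes stood at 63.9 in library 2 and 154 in library 3, and tumour barcodes at 78.1 in library 1 and 42.4 in library 2. No order of the libraries held across these classes. Fibroblasts led by the pericyte gene Rgs5 with Serpinb6b (112 barcodes, 103 of them of library 3) stood at 313 CPM, those led by Pi16 and Clec3b (896) at 132, those led by Pclaf and Fmod (2176) at 94.4, and those led by Nos2 and Mmp13 (514) at 52.7.

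**Figure D5:**
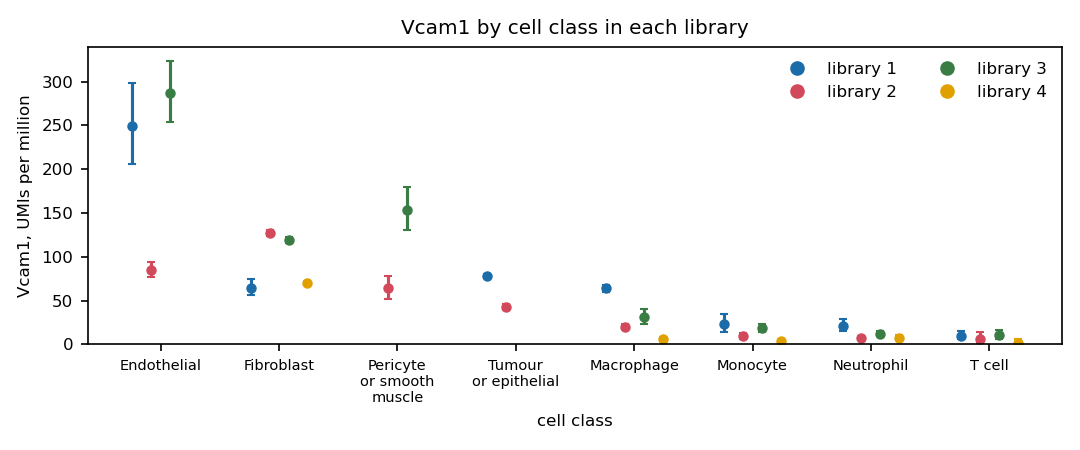
Vcam1 in CPM in 8 cell classes and each library with at least 20 barcodes of the class, with exact 95% Poisson intervals. Endothelial barcodes of libraries 1 and 3 are the highest points (249 and 287), fibroblasts lie between 64.8 and 127, and macrophages run from 6.44 in library 4 to 64.2 in library 1.

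In tumour barcodes Vcam1 was spread over many cells. At least 1 UMI was found in 2165 of 4187 barcodes, and the 386 barcodes with at least 5 held 48.4% of the UMIs. The 565 tumour barcodes with at least 2 cycling markers stood at 71.4 CPM (67.4 to 75.6) and the 3622 others at 74.3 (72.3 to 76.3), which did not differ beyond counting error. By cluster the level was 100.4 CPM in barcodes led by Serpine2 and Angpt1 (1741), 69.7 in those led by Hist1h2ap and Ube2c (448), 62.6 in those led by Fgfbp1 and Fxyd3 (1677) and 41.9 in those led by Col3a1 and Saa3 (241, all of library 2). Icam1 in the same clusters was 30.3, 20.5, 15.3 and 22.9 CPM. Col3a1 is also a fibroblast marker here, and the fibroblast markers summed to 1245 CPM in tumour barcodes of library 2 and 124 in library 1. The part of fibroblast RNA in these values was not tested.

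Macrophage Vcam1 went with library 1. The level was 64.2, 19.9, 31.0 and 6.44 CPM in libraries 1 to 4, and the 12 tumour markers, all present in library 1 macrophages, summed to 1091, 133, 2.17 and 3.48 CPM. Per 100 UMIs of that list Vcam1 gave 5.88 in library 1 macrophages, 2.36 in monocytes, 1.46 in neutrophils and 0.959 in T cells, against 0.732 in tumour barcodes of the same library. In libraries 2 to 4, where the list was lower, macrophages gave 15.0, 1425 and 185, a ratio that rises as the list falls. The part of tumour RNA in these values was not tested. In library 3, where 9 of the 12 tumour markers were at 0 in macrophages, their Vcam1 was 31.0 CPM (23.5 to 40.1). The 12 fibroblast markers summed to 145, 1826, 788 and 918 CPM in the macrophages of libraries 1 to 4 and the 15 endothelial markers to 19.2, 38.2, 77.7 and 45.1, and the part of these cells' RNA was not tested. In library 1, 67 macrophages held at least 5 Vcam1 UMIs, with a median of 2 tumour markers on against 1 in the class.

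The profile of Vcam1 over the classes lay nearest to those of Spats2 (0.943), Zfp532 (0.939), Zfp948, Pam and Trim47 (0.933). It was opposed to those of Selplg (-0.84) and Itgal (-0.788). Gm43109 overlaps Vcam1 on the opposite strand and was given 34 UMIs.

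Itga4 encodes the α4 chain, which pairs with the β1 chain (Itgb1) as VLA-4 or with the β7 chain (Itgb7) as a receptor of VCAM-1 and of the gut addressin, and lies at chr2:79255426-79333123. Mature dendritic cells stood far above the rest at 556 CPM (520 to 595). Basophils or mast cells followed at 233 (179 to 298), where 10.0% of 70 barcodes held all the UMIs, and NK cells at 164, plasmacytoid dendritic cells at 114, other dendritic cells at 63.7, T cells at 59.5 and monocytes at 53.2. Neutrophils at 25.4 and macrophages at 23.1 CPM were the lowest leucocyte classes. Pericytes or smooth muscle, at 28.9 CPM (23.0 to 35.9), were the only non-leucocyte class above 1.37, with 27.7 in library 2 and 25.8 in library 3. A UMI was held by 42.1% of mature dendritic cells, 18.4% of NK cells, 2.65% of pericytes and 0.0735% of tumour barcodes after thinning (89.1%, 52.4%, 25.8% and 1.74% as deposited).

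The mature dendritic cells came largely from library 3, with 137 of 165 barcodes and 611 CPM there, and the 28 barcodes of the other libraries, too few to be ranked, stood at 299.8 CPM (238 to 372). Among leucocyte classes of at least 50 barcodes, mature dendritic cells thus combined the highest Itga4 with the lowest Itgb2. Their Itgam and Itgal were low as well, at 21.2 and 4.49 CPM. Of the 147 with Itga4, 87.8% also held Itgb1 and 8.16% held Itgb7, at 268 and 12.2 CPM in the class. Itgb7 was instead highest in T cells at 238 CPM, basophils or mast cells at 207 and other dendritic cells at 179, and was at most 2.87 in the non-leucocyte classes. Itgb1 was highest outside the leucocytes, with 970 CPM in pericytes or smooth muscle, 630 in endothelial barcodes, 421 in fibroblasts and 408 in tumour barcodes, against 302 in NK cells, 205 in macrophages and 106 in neutrophils.

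T cells differed in Itga4 between libraries, with 116, 38.2, 28.6 and 28.9 CPM in libraries 1 to 4. Their NK markers summed to 876, 200.1, 220 and 162 CPM and their tumour markers to 1038, 145, 72.6 and 86.8, a part in the result that was not tested. Pooled, CD8 T cells (270) stood at 122 CPM (105 to 141) and CD4 T cells (424) at 27.3 (21.4 to 34.4), but 244 of the CD8 barcodes were of library 1. Within library 1 the levels were 120 in CD8 and 124 (73.8 to 197) in 41 CD4 T cells, so the pooled gap was not seen inside that library. CD4 T cells of libraries 2, 3 and 4 stood at 28.7, 17.3 and 21.9 CPM, below the interval of those of library 1. Itgal did not follow, with 96.8 CPM in the CD4 T cells of library 1 and 112 to 173 in those of the other libraries.

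Over all genes tested, 11.1% passed 4-fold for leucocytes, 18.9% for the other barcodes and 5.04% for endothelial barcodes. Of 11 tested genes for other integrin subunits, Itgax, Itgae and Itgb7 were at least 4-fold higher in leucocytes and Itga2 in the other barcodes, while Itga1, Itga6 and Itgb3 passed for endothelial barcodes. Itgax, the αX chain that also pairs with the β2 chain, stood at 28.1 CPM in leucocytes and 1.50 in the other barcodes, and Itga6, a laminin receptor chain, at 289 CPM in endothelial barcodes. Of 14 tested molecules of the vessel wall and its junctions none passed for leucocytes, 5 passed for the other barcodes (Jam3, Esam, Cdh5, Aoc3 and Mcam) and 8 for endothelial barcodes (Icam2, Icam5, Pecam1, F11r, Jam2, Esam, Cdh5 and Mcam). The median log2 ratio of endothelial to other classes was 2.90 over that list, 0.189 over all genes tested and -3.38 over the 9 members. Icam2, the constitutive endothelial ligand of LFA-1, stood at 255 CPM in endothelial barcodes and at 3.20 in neutrophils, and Pecam1, a homophilic junction receptor, at 962 and 19.3. The most abundant gene of the list in neutrophils, macrophages and tumour barcodes was Cd47, with 357, 253 and 334 CPM.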

How the data were processed

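The deposited values are UMI counts per gene and barcode in whole numbers, in 1 joined matrix that the authors made with Cell Ranger. The submitters' processing notes name Cell Ranger 2.1.1 and build mm10, the file header names version 6.1.2, and the paper's methods name another version. No source used here says whether the libraries were brought to equal depth. All 55450 gene identifiers were found in GENCODE vM21, which gave the GRCm38 coordinates.

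From these counts, barcodes with at least 300 genes and at most 15% mitochondrial UMIs (37 genes) were kept, which removed 931. A marker was on in a barcode at 2 or more UMIs per 10000. Leucocytes had at least 3 of 9 general leucocyte markers on, and each class at least 3 of its own. Left out as mixed were 890 leucocyte barcodes. They had at least 6 markers of a non-leucocyte class on, or passed such a class with a larger share of its markers on than for any leucocyte class. Leucocyte barcodes with fewer non-leucocyte markers on were kept. A further 964 barcodes, which passed no gate or tied between non-leucocyte classes, were left out. No doublet caller was applied beyond an alternative that dropped the highest 5% of Scrublet scores. The markers were fixed with the design, while the scoring rule of the gates was set after clusters had been seen, and 1952 barcodes lay at 2 or 3 general markers, next to the cut. Classes under 50 barcodes were not ranked, and classes under 20 barcodes in a library were left out of values by library, except for the endothelial barcodes of library 4. This limit was not applied to the split of endothelial barcodes by venous markers. The members and gene lists were chosen with earlier results of these data known.

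Levels are summed UMIs per 1000000 (CPM). A gene was called at a 4-fold ratio between classes if it had at least 50 UMIs, with no test, since the libraries are not tied to samples. For shares, barcodes were also thinned to 1000 UMIs, which left out 1890. PCR duplicates are collapsed by UMI, and the intervals and the limit of 3 counts for a count of 0 cover counting error only. Named genes were the 9 members, counts and up to 4 examples of each list (the highest in endothelial cells, neutrophils, macrophages and tumour cells), and the 5 genes nearest to Vcam1, Sele, Selp, Icam1 and Selplg by profile among genes with at least 500 UMIs. The scripts ran in Python 3.11.15 with numpy 2.4.6, scipy 1.17.1, pandas 2.3.3, scanpy 1.11.5 (Leiden clusters, igraph 0.11.9) and matplotlib 3.10.9, and the counting and the gates were tested on simulated data. Promoter sequences are those of RefSeq. Some genes of the lists and clusters are not reported here. Alternatives changed the filters, gates, depth, detection limit, libraries, weights and doublets.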

Additional observations from a re-analysis of the deposited data

How the results depend on the processing

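No paired analysis was possible because the libraries are not tied to samples and no result comes from a test. The results were recomputed under 15 settings, of which the one without barcodes at 2 or 3 general leucocyte markers was chosen after seeing the data. Of 403 levels and shares compared, 288 moved by less than their counting interval, 115 moved by more and 0 changed direction. The number of members at least 4-fold higher in leucocytes was 5 under each setting. The number at least 4-fold higher in the other barcodes was 2, and 1 to 2 when a library was left out, since Vcam1 did not pass without library 4 (log2 ratio -1.86, against -2.45 with all libraries). The number passing for endothelial barcodes was 2, and 3 with thinning, where Vcam1 passed too, and without library 2 or library 3, where Icam1 did. All 9 leading classes were those of the pooled gates except with thinning (8), with a library left out (7 to 9) and with libraries weighted equally (7). Icam1 was then led by endothelial barcodes (699 CPM thinned, 557 without library 2, 505 without library 3 and 553 with equal weights), Itgb2 by dendritic cells other than mature ones (221 without library 2, 164 without library 4 and 196 with equal weights), and Itga4 by basophils or mast cells without library 3 (238), where only 28 mature dendritic cells were left and were not ranked, their level being 299.8. Depth limits shares of shallow classes such as neutrophils (median 1820 UMIs), and with 15 to 175 endothelial barcodes in a library the selectin levels rest on few cells.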
